A study of Mus musculus with 4 samples.

Results

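The 8 genes described here encode pore-forming alpha subunits (Scn1a, Scn2a, Scn3a, Scn8a and Scn9a) and auxiliary beta subunits (Scn2b, Scn3b and Scn4b) of voltage-gated sodium channels. They were chosen by symbol and make up 8 of the 40091 genes in the count tables, and all 8 were found in every library. They were followed by snRNA-seq in thalamic tissue of adult WT C57BL6 mice aged 7 to 8 weeks. The COL group received Coll IV (0.01 U in 10 nl, dissolved in saline) in the right VPM and VPL, a model of thalamic haemorrhage, and the NS group received saline. Tissue was taken 7 days after the injection, and each of the 2 libraries of a group pooled 3 mice, so single animals cannot be told apart. All groups shared the WT genotype, the injection and the surgery.

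An alpha subunit forms the sodium pore that opens on depolarization and carries the rising phase of the action potential. Beta subunits are membrane proteins with an immunoglobulin-like domain that alter gating and placement of the channel at the cell surface. Scn2a and Scn8a encode the channels known from the axon initial segment of central neurons, Scn1a is known above all from inhibitory interneurons, Scn3a from the developing brain and Scn9a from peripheral sensory neurons.

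Nuclei were assigned to classes by marker genes, and neurons with clear Gad1 and Gad2 or clear Slc17a6 UMIs were taken as GABA and glutamatergic neurons. In all 4 libraries together, 3811 GABA neurons, 2398 glutamatergic neurons, 2596 astrocytes, 9612 oligodendrocytes, 707 OPC (oligodendrocyte precursor cells) and 1186 microglia entered the sums, and a further 9478 neurons passed neither rule. Levels in neurons are those of the GABA and glutamatergic sums, unless all gated neurons are named. The summed level of each class's own markers was higher in that class than in the other classes in every library, as the assignment required. Levels are given as CPM, the UMIs of a gene per 1000000 UMIs of the sum. The neuron markers summed to between 4050 and 5023 CPM in the GABA sums and to between 630 and 1163 CPM in the glial sums, so UMIs of neuronal genes were present in the glial sums of all libraries. The libraries held 77546840 and 68723738 UMIs in NS and 69489118 and 69495483 UMIs in COL after filtering. The median nucleus held 6489 and 4649 UMIs in NS and 8664 and 8691 UMIs in COL. Library pairs shared between 8 and 31 nuclear barcodes. Dlx6os1 was detected in 44.2%, 15.0%, 42.6% and 30.2% of the GABA neurons of NS 1, NS 2, COL 1 and COL 2. Tcf7l2, known from thalamic relay neurons, was detected in 74.3%, 84.2%, 96.3% and 84.4% of the glutamatergic neurons in that order. It was not particular to neurons, since astrocytes held 557 to 748 CPM of it. These shares were taken without thinning, and the median glutamatergic neuron held 15115.5 and 14624 UMIs in NS and 21866 and 18946 UMIs in COL. The CPM of Dlx6os1 in GABA neurons (93.6, 23.9, 65.9 and 43.2) and of Tcf7l2 in glutamatergic neurons (537, 582, 802 and 584) also differed between libraries. COL against NS was therefore also fitted within subtypes, the nuclei with and without UMIs of these genes. Over all gated neurons COL 1 stood apart, with Tcf7l2 at 604 CPM against 245 to 345 CPM in the other libraries and Nwd2 at 414 CPM against 95.5 to 131 CPM.

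In GENCODE M21 (mouse build mm10), 4 of the alpha subunit genes lie on chromosome 2, namely Scn3a (chr2:65457118-65567627, minus strand), Scn2a (chr2:65620771-65767447, plus strand), Scn1a (chr2:66270778-66440840, minus strand) and Scn9a (chr2:66480080-66634962, minus strand). Scn8a lies apart from them at chr15:100869858-101045938 on the plus strand. The beta subunit genes Scn3b (chr9:40269217-40291618), Scn2b (chr9:45117782-45130070) and Scn4b (chr9:45138395-45154152) all lie on the plus strand of chromosome 9, and the last of these is a close neighbour of Scn2b. The alpha subunit genes span 110.5 to 176.1 kb and the beta subunit genes 12.3 to 22.4 kb. Several annotated genes overlap the members, and whether the authors' counting used strand was not given in the sources used here. The one with most UMIs was Gm13629, an antisense gene within Scn9a, which held 34837 UMIs over all neuronal and glial sums, so values of Scn9a are uncertain to that extent.

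Scn2b and Scn9a are shown by the sequence before their start because the largest COL against NS differences in glia and in GABA neurons were theirs. The sequences are RefSeq promoters of build GRCm38.p6, from 250 bases before to 50 bases after the start, and capitals mark each CG dinucleotide. They lie at chr9:45117626-45117925 (Scn2b, plus strand) and chr2:66634913-66635212 (Scn9a, minus strand).
Scn2b: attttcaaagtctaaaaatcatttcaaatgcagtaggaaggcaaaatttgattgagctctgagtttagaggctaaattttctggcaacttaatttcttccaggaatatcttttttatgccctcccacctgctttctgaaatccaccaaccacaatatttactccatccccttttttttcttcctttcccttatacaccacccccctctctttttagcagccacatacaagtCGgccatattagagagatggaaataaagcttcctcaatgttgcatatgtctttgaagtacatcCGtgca
Scn9a: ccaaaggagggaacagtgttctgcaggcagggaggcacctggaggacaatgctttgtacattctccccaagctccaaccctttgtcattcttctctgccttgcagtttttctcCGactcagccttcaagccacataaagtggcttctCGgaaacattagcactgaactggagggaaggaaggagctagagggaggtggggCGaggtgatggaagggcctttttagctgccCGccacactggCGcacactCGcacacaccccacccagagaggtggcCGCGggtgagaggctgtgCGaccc
Scn2b held 2 CG dinucleotides in this window and Scn9a held 9, against a median of 7 over 32851 promoters of the same length. Among the other members with an entry, Scn8a held 38 at its upstream start and 12 at the other, Scn4b 26 and Scn1a 5. Scn2a held 3 at its upstream start and 9 at the other. Neither of the windows shown held GGGCGG or TATAAA on either strand, which were found in 35.7% and 13.6% of all promoters.

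Scn1a and Scn2a were highest in neurons, where the ranges of the 2 neuron classes overlapped. In GABA neurons Scn1a was at 295.4 and 394.3 CPM in NS and 427.9 and 411.3 CPM in COL. In glutamatergic neurons it was at 347.2 and 376.0 CPM in NS and 400.0 and 420.5 CPM in COL. The lowest neuronal value stood above every value in glia. Scn1a was at 194 to 218 CPM in OPC, above the other glia, where it ranged from 59.4 CPM in astrocytes to 128.6 CPM in microglia. Scn2a followed the same order, at 391 to 443 CPM in neurons, 184 to 286 CPM in OPC and 81.7 to 148 CPM in the other glia. OPC stood apart from microglia, oligodendrocytes and astrocytes for both genes, while these 3 classes overlapped each other.

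Scn3a was highest in GABA neurons, at 200.6 and 179.1 CPM in NS and 244.0 and 200.2 CPM in COL. OPC held 173.3 and 147.9 CPM of it in NS and 161.2 and 155.8 CPM in COL, which overlapped the glutamatergic values of 137 to 174 CPM. Astrocytes, oligodendrocytes and microglia held 26.2 to 72.3 CPM. OPC thus stood within the range of neurons for Scn3a and well above the other glia.

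Scn8a was at 256 to 367 CPM in the GABA and glutamatergic sums, at 198 to 218 CPM in OPC and at 117 to 152 CPM in astrocytes. Oligodendrocytes held 95.4 to 124 CPM and microglia 60.2 to 84.8 CPM, the lowest of the classes. Astrocytes and oligodendrocytes overlapped over the libraries, but astrocytes were the higher in all 4 of them.

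Scn9a was high in neurons and low in every glial class. It was at 196.7 and 226.1 CPM in NS and 106.5 and 154.1 CPM in COL in GABA neurons, and at 126.5 and 129.9 CPM in NS and 103.2 and 104.5 CPM in COL in glutamatergic neurons. No glial sum of Scn9a exceeded 33.6 CPM, and no GABA or glutamatergic sum was below 103.2 CPM. The neurons that passed neither rule held 93.8 CPM in COL 1. OPC, which stood above other glia for the remaining alpha subunits, held only 13.1 to 19.7 CPM, with 10 to 23 UMIs per library.

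The beta subunits had another pattern. Scn2b ranged from 22.8 to 47.0 CPM in neurons and from 14.4 to 57.2 CPM in glia, and neighbours in the order of its 6 classes all overlapped. Scn3b ranged from 26.2 to 47.4 CPM in neurons, and its glial values of 8.92 to 33.5 CPM overlapped them in OPC. Scn4b was at 3.34 to 5.23 CPM in neurons, and it had no UMI among the 1841284 UMIs of the astrocytes of COL 2, which allows up to 1.63 CPM by counting error alone. With 0 to 15 UMIs in each library of astrocytes, OPC and microglia, Scn4b could not be compared in these classes.

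**Figure D1:**
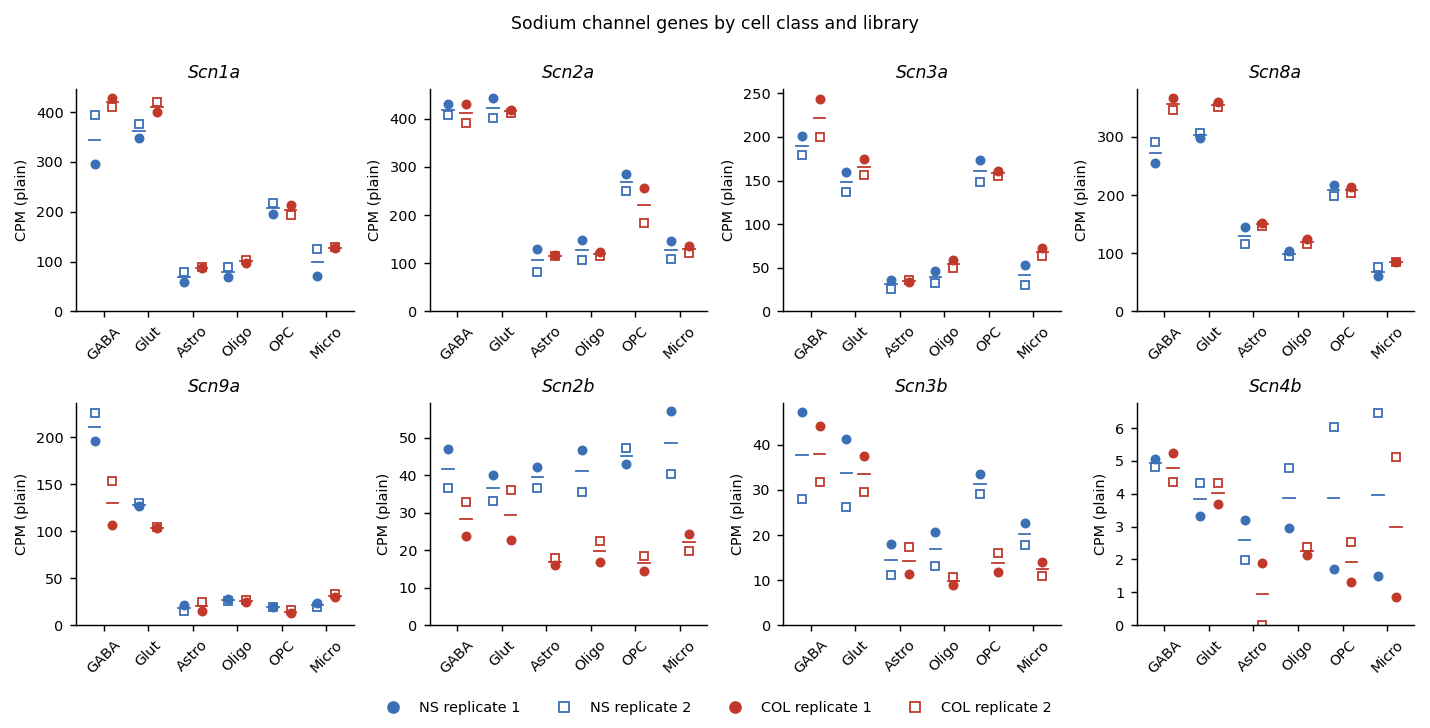
Level of each member as CPM (UMIs of the gene per 1000000 UMIs of the class sum, on a linear axis) in 6 classes, with 1 point per library, lines for the mean of 2 libraries and colours for NS and COL. Scn1a, Scn2a, Scn3a and Scn8a were lower in OPC than in GABA neurons and higher there than in the other glia, whereas Scn2b spanned 22.8 to 47.0 CPM in neurons and 14.4 to 57.2 CPM in glia.

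Tests between classes within the libraries, added after the data had been seen, gave the sizes of these differences. Against oligodendrocytes, OPC were higher for Scn1a (log2 fold change 1.17, SE 0.11), Scn2a (0.93, SE 0.11), Scn3a (1.75, SE 0.12), Scn8a (0.89, SE 0.10) and Scn3b (0.72, SE 0.20), and lower for Scn9a (-0.65, SE 0.18). These 6 of 8 members passed the test, while 41.7% of all 15491 genes tested passed it. The largest adjusted p of the 6 was 0.0075, for Scn3b, whose call was lost under DESeq2 (adjusted p = 0.054) and without NS 2 (0.094). The call of Scn9a was lost when doublets were left out (log2 fold change -0.37, adjusted p = 0.17) and with a wider lead of the marker gate (-0.36, adjusted p = 0.26). Both estimates were smaller in size than the -0.65 above. GABA neurons were higher than OPC for 6 of 8 members, against 21.9% of genes, and by most for Scn9a (log2 fold change 3.30, SE 0.14, adjusted p = 8.87e-12). Gm13629, the antisense gene within Scn9a, differed in the same direction as Scn9a, by 3.11 between GABA neurons and OPC (adjusted p = 5.3e-10) and by -0.49 between OPC and oligodendrocytes (adjusted p = 0.031), so reads of these genes cannot be told apart there if strand was not used. The difference between GABA neurons and OPC was smallest among the alpha subunits for Scn3a (0.34, SE 0.11, adjusted p = 0.017), and it was lost without COL 1 (adjusted p = 0.073). The call of Scn3b was lost without COL 1 (adjusted p = 0.089) or COL 2 (0.056), so that 4 members passed without COL 1. In that fit 3234 of all 15954 genes tested passed as higher. Astrocytes were higher than oligodendrocytes for Scn8a (0.32, SE 0.081, adjusted p = 0.0079) and lower for Scn1a (-0.23, SE 0.079, adjusted p = 0.037), Scn3a and Scn9a, so that 4 of 8 members passed against 47.1% of genes. In this last comparison Scn1a missed the threshold when doublets were left out (adjusted p = 0.14), with the wider lead (0.084) and without any 1 of the 4 libraries (0.061 to 0.12). Scn8a missed it without the filter on low counts (adjusted p = 0.19), under DESeq2 (0.081) and without NS 1 (0.073). Scn9a, at -0.50 with all nuclei and libraries, missed it when doublets were left out (-0.25, adjusted p = 0.22). It also did so without NS 1 (adjusted p = 0.051) or NS 2 (0.10). Scn2a passed as lower without the filter (adjusted p = 0.020) and without COL 2 (0.047). Only 1 member passed without NS 1, where 3400 of 16655 genes passed as higher and 3093 as lower. Without NS 2 it was 2 members, beside 3454 of 16686 genes higher and 3023 lower.

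The share of nuclei with a UMI was also taken after each nucleus was thinned to 2000 UMIs. It did not follow the order of the CPM throughout. For Scn3a the thinned share was higher in glutamatergic neurons than in OPC of NS 1 (29.5% against 27.5%) and NS 2 (27.3% against 25.2%), although the CPM were higher in OPC. For Scn1a microglia of NS 1 (10.5%) were below oligodendrocytes (11.6%), again unlike the CPM, so no order was read from these shares. Scn1a was found in 30.1% and 33.6% of thinned OPC of NS 1 and NS 2, with 229 of 233 and 226 of 228 nuclei deep enough. In microglia it was found in 10.5% and 16.3%, with 181 of 282 and 153 of 289 nuclei deep enough. Without thinning the shares were 55.8% and 56.6% in OPC and 14.2% and 22.1% in microglia, at median depths of 4760 and 4248 UMIs and of 2266 and 2033 UMIs. Scn2b was found in 8.77% and 8.05% of thinned GABA neurons and in 12.7% and 7.84% of thinned microglia of NS 1 and NS 2. Without thinning it was in 37.8% and 30.1% of GABA neurons, at median depths of 9967.5 and 9148 UMIs, and in 12.8% and 8.30% of microglia. The thinned shares of Scn2b in GABA neurons were no higher than those of microglia in NS 1 and were close to them in NS 2, and what free RNA adds to either was not tested.

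Glial levels were also set against all gated neurons of the same library, beside 5 neuronal genes that the class assignment did not use (Snhg11, Celf4, Grin1, Rims1 and Slc12a5). In oligodendrocytes the median of the 5 alpha subunit genes was 24.3% to 29.1% of the neuronal level in the 4 libraries, and that of the 5 other genes 15.4% to 24.8%. In OPC the alpha subunits had a median of 49.0% to 66.6%, and the other genes 20.98% to 28.0%. Single genes went the other way in OPC, where Rims1 stood at 70.2% to 75.4% and Scn9a at 10.4% to 13.1%. Scn2b in oligodendrocytes reached 104.2% and 97.5% of the neuronal level in NS and 65.6% and 65.1% in COL. Of the 5 other genes in oligodendrocytes, only Slc12a5, a neuronal chloride transporter, was lower in COL without overlap, at 52.5% and 50.9% in NS and 31.0% and 31.7% in COL. Snhg11 (17.8% and 15.4% in NS, 24.3% and 19.8% in COL) and Rims1 (17.6% and 14.0% in NS, 27.2% and 26.6% in COL) were higher in COL, and the groups overlapped for Celf4 and Grin1. Slc12a5 was also lower in COL without overlap in the other glial classes. In astrocytes it stood at 55.6% and 45.1% in NS and 24.9% and 29.9% in COL. In OPC it stood at 47.6% and 48.8% in NS and 33.5% and 32.2% in COL. In microglia it stood at 82.3% and 57.1% in NS and 42.8% and 33.5% in COL. Celf4 was lower in OPC and microglia. Snhg11 was higher in all of these classes, Rims1 in astrocytes and microglia, and Grin1 in astrocytes. The part of free RNA in the glial values of the members was not tested.

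**Figure D2:**
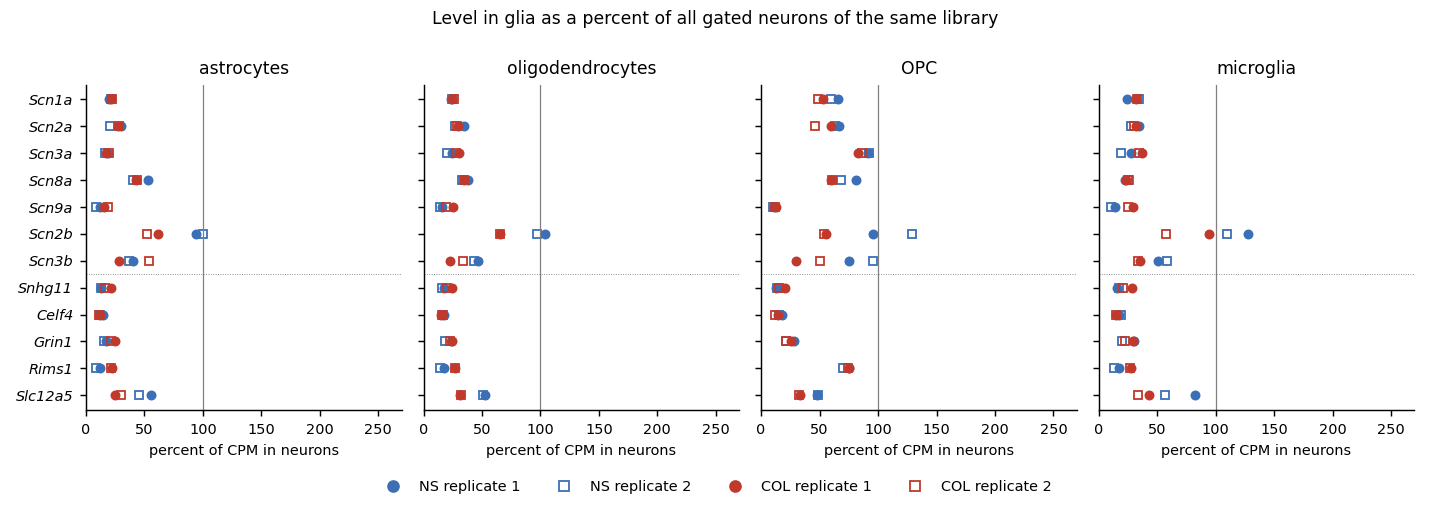
Level in each glial class as a percent of the level in all gated neurons of the same library (x axis, percent), for 7 members above the dotted line and 5 neuronal genes below it, with 1 point per library. In oligodendrocytes Scn2b stood at 97.5% to 104.2% in NS and at 65.1% to 65.6% in COL, whereas the alpha subunits had medians of 24.3% to 29.1%.

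GABA and glutamatergic neurons were compared within the libraries to ask which members differed between inhibitory and excitatory neurons. Scn9a (log2 fold change 0.37, SE 0.099, adjusted p = 0.020) and Scn3a (0.25, SE 0.069, adjusted p = 0.026) were higher in GABA neurons in 4 of 4 libraries. These 2 of 8 members passed the test, while 13.2% of all 18210 genes tested passed it as higher in GABA neurons. The level of Scn9a was 70.3 CPM higher in GABA neurons in NS 1 but 3.36 CPM higher in COL 1. Scn8a was lower in GABA neurons by 0.22 on the log2 scale without passing the test (SE 0.081, adjusted p = 0.077). It passed without the filter on low counts (adjusted p = 0.017) and with a wider lead (0.044). As plain CPM, GABA minus glutamatergic, it was at -42.7 in NS 1, -16.4 in NS 2, 7.56 in COL 1 and -4.91 in COL 2. Scn1a (-0.17, SE 0.086) and Scn2a (-0.16, SE 0.072) did not pass it. The beta subunit genes differed by -0.065 (Scn2b, SE 0.071), 0.022 (Scn3b, SE 0.069) and 0.19 (Scn4b, SE 0.16). The call of Scn9a was lost without NS 1, NS 2 or COL 2 (adjusted p = 0.11, 0.11 and 0.072), and that of Scn3a without COL 1 or COL 2 (adjusted p = 0.067 and 0.077) and with the gate on raw UMIs (0.063). Gm13629, the antisense gene within Scn9a, was at -0.033 in this comparison (adjusted p = 0.80).

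Within the neuron classes Scn9a was split by subtype, as a description with no test. Glutamatergic neurons without Tcf7l2 UMIs held 193.6 and 197.5 CPM of Scn9a in NS and 123.7 and 140.3 CPM in COL, whereas those with Tcf7l2 held 112.1 and 122.3 CPM in NS and 102.6 and 98.9 CPM in COL. The level was lower with Tcf7l2 in every library. GABA neurons held 196.7 and 226.1 CPM of Scn9a in NS and 106.5 and 154.1 CPM in COL. Glutamatergic neurons without Tcf7l2 were thus below GABA neurons in NS 1, NS 2 and COL 2 and above them in COL 1. Nuclei without Tcf7l2 were few, 162 and 79 in NS and 27 and 83 in COL, against 468 and 422 in NS and 708 and 449 in COL with it. A split by any UMI also sorts nuclei by depth. In NS 1 the 162 nuclei held 1901031 UMIs and the 468 nuclei 8886129 UMIs. The part of depth in the split was not tested. GABA neurons with and without Dlx6os1 were closer, at 110 to 245 CPM and 104 to 222 CPM of Scn9a. Scn3a was higher with Dlx6os1 than without it in every library, by the widest margin in NS 2 (242.6 against 166.6 CPM). In NS 2 only 121 GABA neurons had Dlx6os1, against 686 without it.

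**Figure D3:**
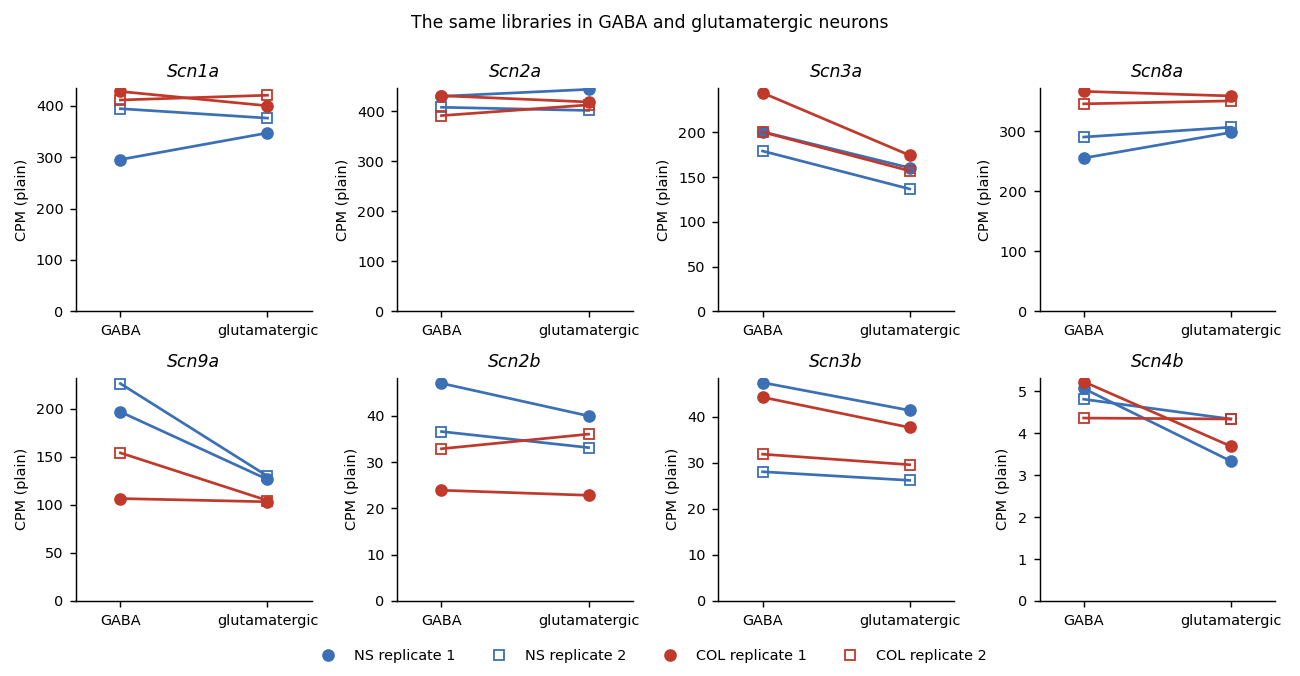
CPM of each member (y axis, linear) in GABA and glutamatergic neurons, with 1 line per library and colours for NS and COL. The lines of Scn3a and Scn9a fell from GABA to glutamatergic neurons in all 4 libraries, that of Scn9a in COL 1 only from 106.5 to 103.2 CPM.

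COL was then compared with NS in each class, on UMI sums per library. In GABA neurons no member passed the test, and neither did any of the 19292 genes (0%) under edgeR, although 5288 genes had an unadjusted p below 0.05 and DESeq2 called 1301 genes (7.75%), none of them a member. Scn9a was at 196.7 and 226.1 CPM in NS against 106.5 and 154.1 CPM in COL, and the groups did not overlap. The fitted difference was -0.58 on the log2 scale (SE 0.18, adjusted p = 0.12). Scn8a was at 255.6 and 290.6 CPM in NS against 366.7 and 346.0 CPM in COL, again without overlap, and its log2 ratio was estimated at 0.52 (SE 0.17, adjusted p = 0.12). Per nucleus the groups overlapped for Scn9a, at 2.15 and 2.33 UMIs in NS and 1.77 and 2.58 in COL. For Scn8a they did not, at 2.80 and 2.99 UMIs in NS and 6.09 and 5.78 in COL. Scn1a, Scn2a and Scn3a were also higher per nucleus in COL without overlap. The median GABA neuron held 9967.5 and 9148 UMIs in NS and 14541 and 15247 UMIs in COL. In GABA neurons thinned to 2000 UMIs, Scn9a was found in 30.2% and 36.9% in NS and in 20.2% and 25.4% in COL, without overlap. Within GABA neurons the difference of Scn9a was -0.48 with Dlx6os1 (SE 0.23, adjusted p = 0.27) and -0.67 without it (SE 0.17, adjusted p = 0.078). Gm13629, the antisense gene within Scn9a, was at -0.29 in the same comparison (adjusted p = 0.59). Scn9a and Scn8a both passed the test without the filter on low counts (adjusted p = 0.0079 and 0.010), where 11.3% of all genes passed. Scn9a passed it without COL 2 (adjusted p = 0.032), where 12.7% of all genes passed. With 1 library left out of a group, the remaining library was assumed to vary like the pair of the other group, and without COL 2 the COL group was COL 1 alone. Scn1a (0.41, SE 0.20), Scn3a (0.37, SE 0.17) and Scn2b (-0.43, SE 0.18) had larger estimates than Scn2a (0.11), Scn3b (0.16) and Scn4b (0.092), and none passed the test. In 4 of 8 members the CPM of the groups did not overlap, compared with 59.0% of all genes tested.

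In glutamatergic neurons no member and none of the 18077 genes (0%) passed the test under edgeR, with 3164 genes at an unadjusted p below 0.05 and 472 genes (2.68%) called by DESeq2, none of them a member. Scn9a was at 126.5 and 129.9 CPM in NS and 103.2 and 104.5 CPM in COL (log2 fold change -0.26, SE 0.13, adjusted p = 0.36). The difference was -0.20 with Tcf7l2 (SE 0.14, adjusted p = 0.53) and -0.50 without it (SE 0.18, adjusted p = 0.20). The sums without it rested on only 162 and 79 nuclei in NS and 27 and 83 nuclei in COL. Scn8a was at 298.2 and 307.0 CPM in NS and 359.2 and 350.9 CPM in COL (0.28, SE 0.15, adjusted p = 0.38). Neither pair of groups overlapped in CPM, and 3 of 8 members were of this kind, against 48.1% of genes. Per nucleus the groups overlapped for Scn9a, at 2.17 and 2.09 UMIs in NS and 2.51 and 2.13 UMIs in COL. The remaining members lay between -0.29 (Scn2b) and 0.22 (Scn1a).

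The difference between these COL effects was tested as an interaction. No member passed, and neither did any of the 19540 genes (0%) under edgeR, with 970 genes at an unadjusted p below 0.05 and 1 gene called by DESeq2. The COL effect on Scn9a was lower in GABA than in glutamatergic neurons by 0.35 on the log2 scale (log2 difference -0.35, SE 0.18, adjusted p = 0.92), and that on Scn8a was higher by 0.22 (SE 0.12, adjusted p = 0.92). When all 15687 gated neurons were summed, a comparison added after the data had been seen, Scn9a was at 176.3 and 183.0 CPM in NS and 99.7 and 134.6 CPM in COL (-0.48, SE 0.15, adjusted p = 0.11). The lowest of these values was that of COL 1, the library that stood apart in Tcf7l2 and Nwd2, and the part of this make-up in the summed value was not tested. No member passed in this sum, in which 0.899% of genes did under edgeR, with 7069 genes at an unadjusted p below 0.05 and 1009 genes called higher and 1921 lower by DESeq2, none of them a member. Without COL 2, Scn9a and Scn8a both passed (adjusted p = 0.016 and 0.033), as did 23.5% of all genes.

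In glia Scn2b passed the test as lower in COL in all 4 classes, and Scn3b did so in OPC only. These classes came from the same 4 libraries, so their results are not independent. In GABA neurons Scn2b was also lower without overlap, at 47.0 and 36.6 CPM in NS and 23.9 and 32.9 CPM in COL. It did not pass there, and 59.0% of all genes did not overlap. In all gated neurons it was at 44.9 and 36.6 CPM in NS and 25.9 and 34.4 CPM in COL, and did not pass. In glutamatergic neurons the groups overlapped. In oligodendrocytes Scn2b was at 46.8 and 35.7 CPM in NS and 17.0 and 22.4 CPM in COL, and the groups did not overlap. The log2 ratio of COL to NS was -0.98 (SE 0.19, adjusted p = 0.013). No other member passed the test there, and 11.5% of genes passed as lower in COL. In astrocytes it was at 42.1 and 36.7 CPM in NS and 16.0 and 17.9 CPM in COL (-1.15, SE 0.24, adjusted p = 0.011), where 8.74% of genes passed as lower. In OPC it was at 42.9 and 47.3 CPM in NS and 14.4 and 18.5 CPM in COL (-1.38, SE 0.31, adjusted p = 0.0086), where 7.02% of genes passed as lower. In microglia it was at 57.2 and 40.3 CPM in NS and 24.4 and 19.9 CPM in COL (-1.14, SE 0.32, adjusted p = 0.020), where 12.4% of genes passed as lower. The groups did not overlap in any of these 4 classes, but the share of all genes without overlap was not taken in glia. In oligodendrocytes Scn1a, Scn3a and Scn8a were higher, and Scn3b and Scn4b lower, in COL without overlap as well. Under DESeq2 the call held in oligodendrocytes (adjusted p = 0.0035) and was lost in astrocytes, OPC and microglia (adjusted p = 0.0596, 0.212 and 0.254). DESeq2 called 16.6%, 9.1%, 3.6% and 9.59% of genes in oligodendrocytes, astrocytes, OPC and microglia, in either direction. Without NS 1 it was lost in oligodendrocytes, OPC and microglia (adjusted p = 0.074, 0.11 and 0.21), and without NS 2 in OPC (adjusted p = 0.063).

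Counted per nucleus, the groups overlapped in 3 of the 4 glial classes. Scn2b had 0.180 and 0.120 UMIs per oligodendrocyte in NS and 0.103 and 0.154 in COL, and the values of astrocytes and microglia overlapped as well. In OPC there were 0.215 and 0.206 UMIs per nucleus in NS and 0.109 and 0.152 in COL, which did not overlap. The depth of glial nuclei moved with the group, since the median oligodendrocyte held 3236 and 2982.5 UMIs in NS and 5295 and 5966.5 UMIs in COL. The summed astrocyte markers in oligodendrocytes were at 565 and 511 CPM in NS and 256 and 298 CPM in COL, and Slc17a6 at 75.1 and 74.0 CPM in NS and 44.5 and 46.0 CPM in COL. The neuron markers went the other way, at 827 and 709 CPM in NS and 1064 and 929 CPM in COL, as did the microglia markers (99.8 and 102 CPM in NS, 106 and 209 CPM in COL) and the macrophage markers (1.48 and 2.03 CPM in NS, 29.0 and 68.1 CPM in COL). Of 12 marker lists of other cells in oligodendrocytes, 4 were lower in COL, 5 were higher and 3 overlapped. In microglia the macrophage markers were at 7.52 and 3.22 CPM in NS and 118 and 170 CPM in COL, whereas the astrocyte markers (655 and 586 CPM in NS, 291 and 283 CPM in COL) and Slc17a6 (120 and 103 CPM in NS, 65.3 and 54.1 CPM in COL) were lower in COL. Slc17a6 was also lower in COL in astrocytes (67.3 and 76.1 CPM in NS, 41.4 and 44.5 CPM in COL) and in OPC (52.3 and 64.4 CPM in NS, 35.4 and 37.9 CPM in COL). The GABA markers were lower in COL without overlap in all 4 glial classes. Of 12 lists, 4 were lower and 3 higher in astrocytes, 5 and 4 in OPC, and 4 and 3 in microglia. The part of depth and of RNA from other cells in the fall of Scn2b was not tested.

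In OPC Scn3b was at 33.5 and 29.2 CPM in NS and at 11.8 and 16.0 CPM in COL (log2 fold change -1.10, SE 0.35, adjusted p = 0.049). Per nucleus the groups overlapped, at 0.167 and 0.127 UMIs in NS and 0.0891 and 0.131 UMIs in COL. The median OPC held 4760 and 4248 UMIs in NS and 7285 and 7449 UMIs in COL. The sums held only 39 and 29 UMIs in NS and 9 and 19 UMIs in COL, and the call was lost under DESeq2 (adjusted p = 0.56), without the filter (0.055), with the wider lead (0.083) and without NS 1 (adjusted p = 0.31), NS 2 (0.17) or COL 1 (0.13). Scn3a did not pass in oligodendrocytes (0.56, SE 0.21, adjusted p = 0.085) or microglia (0.70, SE 0.29, adjusted p = 0.093) but did so in both without the filter on low counts (adjusted p = 0.033 and 0.049) and without COL 2 (0.011 and 0.021), and in microglia without NS 1 (0.046). In oligodendrocytes 17.1% of all genes passed without the filter and 35.8% without COL 2, and in microglia 12.5% and 28.4%. Without COL 2, Scn8a also passed as higher (log2 fold change 0.43) and Scn3b as lower (-0.79) in oligodendrocytes. Without NS 2, Scn1a passed as higher in microglia (0.95). In the fits with all libraries, Scn3b was also lower in oligodendrocytes (-0.68, SE 0.25, adjusted p = 0.083) and microglia (-0.72, SE 0.42, adjusted p = 0.25). The groups did not overlap in either class, for which no share over all genes was taken, and neither difference passed. In astrocytes Scn3b was at 0.075 (SE 0.34) and the groups overlapped. With all libraries, the filter and no replicate block, no alpha subunit gene passed in any glial class, and their estimates ran from -0.36 (Scn9a in OPC) to 0.70 (Scn3a in microglia). Scn4b was filtered out in astrocytes, OPC and microglia, so that 7 members were tested there and 8 in oligodendrocytes.

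**Figure D4:**
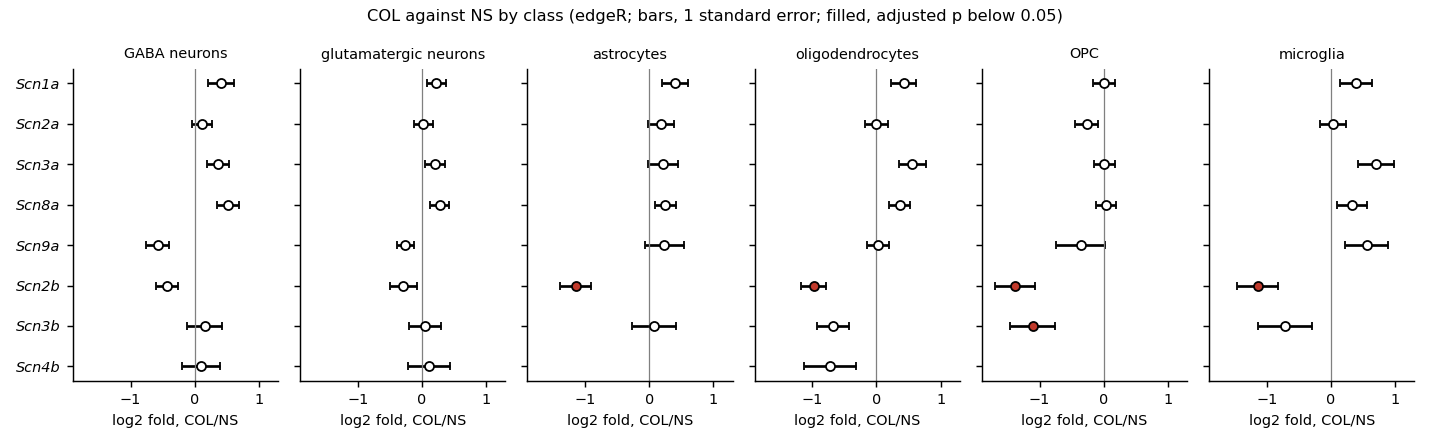
Log2 fold change of COL against NS (x axis) for each member in each class, with bars of 1 SE from edgeR and filled points where the adjusted p is below 0.05. Scn2b is filled in the 4 glial classes, at -0.98 to -1.38, and Scn3b in OPC, and no point is filled in neurons.

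Genes that work with the channels were followed as 4 lists. Of 4 other sodium channel genes, 1 (Scn7a, a sodium channel of the same family) was tested in both neuron classes. Its level in GABA neurons was 10.6 and 8.90 CPM in NS and 4.06 and 6.001 CPM in COL (log2 fold change -0.83, SE 0.26, adjusted p = 0.12), and in glutamatergic neurons 7.42 and 6.08 CPM in NS and 6.38 and 5.27 CPM in COL (-0.15, SE 0.28, adjusted p = 0.82). The groups did not overlap in GABA neurons and overlapped in glutamatergic neurons, and neither difference passed the test. Scn4a, Scn10a and Scn11a, channels of skeletal muscle and sensory neurons, stayed at or under 0.626 CPM in both neuron classes.

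The fibroblast growth factor homologous factors bind the intracellular tail of the alpha subunit. Fgf11 was higher in GABA than in glutamatergic neurons (1.53, SE 0.16), and Fgf12 (-0.67, SE 0.10) and Fgf13 (-1.24, SE 0.11) were lower, so that 3 of 4 passed, beside 26.5% of all genes in either direction. Of 6 genes of the axon initial segment and node, 3 were lower in GABA neurons and none higher, beside 13.2% of all genes called lower. The 3 were the potassium channel gene Kcnq3 (-1.13) and the adhesion genes Nfasc (-0.53) and Nrcam (-0.42). The sodium leak channel complex had 2 of 4 genes lower in GABA neurons, Unc80 (-0.69) and Fam155a (-0.38, also known as Nalf1). The median log2 fold changes of these 3 lists were -0.35, -0.24 and -0.25, that of the 8 members was -0.021 and that of all genes was 0.040. None of these genes passed in COL against NS in either neuron class under edgeR, where 0% of all genes did. DESeq2, which called 7.75% of genes in GABA neurons and 2.68% in glutamatergic neurons, called Nfasc in GABA neurons (log2 fold change 0.71, adjusted p = 0.0075) and no other gene of the lists. Under edgeR, the COL against NS medians of the 3 lists were 0.22, 0.46 and 0.37 in GABA neurons and -0.050, 0.17 and 0.145 in glutamatergic neurons. The edgeR medians beside them were 0.13 and 0.081 for the members and 0.0094 and -0.017 for all genes.

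The same 3 lists were counted in glia. In oligodendrocytes 3 of 4 homologous factors, 3 of 6 initial segment genes and 3 of 4 leak channel genes rose in COL, where 9.24% of all genes passed as higher and none of the 8 members did. Astrocytes had 1, 4 and 3 risen genes in these lists (7.54% of all genes), microglia 2, 3 and 3 (11.2%), and OPC 0, 3 and 0 (5.5%), and no gene of the 3 lists fell in these classes. The summed neuron markers were also higher in COL in every glial class without overlap, at 688 and 630 CPM in NS against 921 and 810 CPM in COL in astrocytes, 956 and 830 against 1130 and 1006 CPM in microglia, and 1007 and 981 against 1163 and 1008 CPM in OPC. Their part in the counts of risen genes was not tested. Nrcam rose in all 4 glial classes, by 0.58 to 0.98 on the log2 scale. These glial counts are from edgeR with all libraries, and those of the alternatives are not given for the lists in glia. In OPC edgeR called 593 of all genes higher in COL and DESeq2 called 214.

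Over the 24 sums of 6 classes and 4 libraries, the genes whose log2 CPM was most like each member were named from 10605 genes. They were Pcnx2 for Scn1a (r = 0.98), Gnal for Scn2a (r = 0.98), Galnt13 for Scn3a (r = 0.98), Gpr158 for Scn8a (r = 0.98), Pgr for Scn9a (r = 0.97), St8sia3 for Scn2b (r = 0.96) and Tmem191c for Scn3b (r = 0.93). Scn4b was below the minimum mean of 10 CPM. Scn1a, Scn2a and Scn3a were like each other (r = 0.90 to 0.93), whereas Scn2b had r values of -0.052 to 0.25 with the 5 alpha subunit genes. These correlations describe sums that share libraries and classes, and carry no test.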

How the data were processed

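snRNA-seq was performed on 4 libraries, 2 each from the NS and COL groups. According to the methods and labels, nuclei were isolated from the tissue, 10x Genomics libraries were sequenced and Cell Ranger 1.2.0 was run against mm10 by the authors. The deposited values are raw UMI counts for each gene in each barcode, without normalization, and whether intronic reads or strand were used is not given in the sources used here. Counts from introns would favour long genes, so levels were not compared between genes.

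Nuclei had to show over 50 genes and under 5% of UMIs from mitochondrial genes (9673, 10422, 5931 and 6265 nuclei for NS 1, NS 2, COL 1 and COL 2). The class was the marker list with the highest mean of ln(1 + 10000 × UMI / total), which had to reach 0.5 and lead by 0.3. Neurons with at least 3 UMIs of Gad1 and Gad2 together, and at least 3 times as many as of Slc17a6, were GABA neurons, and the reverse rule gave glutamatergic neurons. Doublets (0.8% per 1000 barcodes expected) were scored and left in, and were removed in an alternative.

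UMIs were summed per library and class and tested with edgeR 4.0.16 (filterByExpr, TMM, quasi-likelihood F test, Benjamini-Hochberg adjustment over all genes tested, threshold 0.05), with R 4.3.3 and limma 3.58.1. The SE was the log2 fold change divided by the root of F. Printed CPM are per 1000000 UMIs without TMM. Comparisons between classes had the library as a block. DESeq2 1.42.0, no filter, at least 500 genes per nucleus, a lead of 0.6, removal of doublets, thinning to 2000 UMIs, a gate on raw UMIs, subtypes, a replicate block and leaving out each library were alternatives. The tests were tested on simulated data first. Replicates were pools of separate mice. In COL against NS fits, p-values measure the spread between 2 pools per group (without 1 library, that of the complete group). In comparisons between classes, they measure how the class difference within a library varied over the libraries of both groups. For the difference of COL effects, they measure how that class difference varied within the groups. Figures were drawn with matplotlib 3.10.9 under Python 3.11.15, with numpy 2.4.6, scipy 1.17.1, pandas 2.3.3 and scikit-learn 1.9.0.

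All 40091 gene IDs were found in GENCODE M21. The members, lists, like-gene rule (highest Pearson r of log2(CPM + 1) among genes with a mean of at least 10 CPM, gate markers left out) and tests were chosen with earlier results of these data known. Some genes first placed in the lists are not reported here. All 8 members are named, and other genes where they passed in a neuron class or were needed for a level. RefSeq promoters were matched by symbol for 6 members. Intervals and floors (3 UMIs) cover counting error only.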

Additional observations from a re-analysis of the deposited data

How the results depend on the processing

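The counts of the 2 libraries of a group differed beyond sampling noise in all classes. Depth limited Scn4b in astrocytes, OPC and microglia. The cause of the changes below was not tested. The number of members called for COL against NS was 2 in GABA neurons without the filter on low counts (main 0). In oligodendrocytes (main 1) it was 2 without the filter and 3 with the replicate block. The block added Scn3a (log2 fold change 0.56, adjusted p = 0.025) and Scn3b (-0.65, adjusted p = 0.043), beside 29.4% of all genes. In OPC (main 2) it was 0 under DESeq2, 1 without the filter (7.35% of all genes) and 1 with the wider lead (7.81%), in astrocytes (main 1) it was 0 under DESeq2, and in microglia (main 1) it was 0 under DESeq2, 2 without the filter and 2 with the replicate block, which added Scn3a (adjusted p = 0.035), beside 29.4% of all genes. GABA against glutamatergic neurons gave 1 (main 2) with the gate on raw UMIs, beside 1972 genes higher and 2072 lower of 16793 tested. Astrocytes against oligodendrocytes gave 2 (main 4) without doublets, beside 3995 genes higher and 3681 lower of 16240. Among all genes, GABA against glutamatergic neurons without 1 library gave 1467 to 2107 higher and 1838 to 2166 lower, of 18131 to 18688 tested. For astrocytes against oligodendrocytes these were 3400 to 3992 and 3023 to 3635, of 16594 to 16799. Leaving out 1 library gave 0 to 1 members in GABA neurons, 0 to 4 in oligodendrocytes, 0 to 2 in OPC, 1 to 2 in microglia and 0 to 2 in all gated neurons for COL against NS, 0 to 1 for GABA against glutamatergic neurons and 1 to 4 for astrocytes against oligodendrocytes. In these fits 0% to 12.7% of all genes passed in GABA neurons, 9.6% to 35.8% in oligodendrocytes, 0.557% to 17.3% in OPC, 10.3% to 28.4% in microglia and 0.00404% to 23.5% in all gated neurons. The replicate number was not known to pair libraries (correlation of same-numbered deviations 0.049 to 0.13), and with the replicate block as a term the members called were 0 in GABA (8.27% of all genes) and glutamatergic neurons (5.11%), 1 in astrocytes (19.9%), 2 in OPC (16.8%) and 0 in all gated neurons (7.81%).

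Members near 0 changed sign. For COL against NS, Scn2a in oligodendrocytes was at 0.0058 under DESeq2, 0.0011 with at least 500 genes, 0.034 without doublets, 0.013 without filter, 0.0040 with the replicate block and 0.051 with the wider lead. The wider lead also gave -0.083 for Scn1a and -0.030 for Scn8a in OPC. In GABA neurons Scn4b was at -0.0015 without doublets, -0.037 with raw UMIs and -0.74 with Dlx6os1, and Scn3b at -0.090 when thinned and -0.0010 without Dlx6os1. In glutamatergic neurons Scn2a was at -0.021 with raw UMIs, -0.0029 with Tcf7l2 and -0.066 without it, and Scn3b at -0.088 when thinned and -0.038 without Tcf7l2. For GABA against glutamatergic neurons, Scn3b was at -0.0043 without doublets and Scn4b at -0.096 with raw UMIs, and the difference of COL effects for Scn3b was -0.0062 with raw UMIs. Scn4b was at 0.064 for OPC against oligodendrocytes with the wider lead, and Scn3b at -0.062 without filter and -0.031 with the wider lead for astrocytes against oligodendrocytes. Leaving out 1 library in COL against NS gave -0.039 to 0.20 (Scn2a), -0.19 to 0.53 (Scn3b) and -0.12 to 0.25 (Scn4b) in GABA neurons, -0.053 to 0.12, -0.21 to 0.38 and -0.11 to 0.36 in glutamatergic neurons, and -0.00068 to 0.24, -0.18 to 0.34 and -0.038 to 0.71 in all gated neurons. It gave -0.049 to 0.51 (Scn2a), -0.20 to 0.49 (Scn9a) and -0.30 to 0.41 (Scn3b) in astrocytes, -0.165 to 0.149 (Scn2a) in oligodendrocytes, and -0.086 to 0.27 (Scn2a) in microglia. In OPC it gave -0.081 to 0.16 (Scn1a), -0.51 to 0.014 (Scn2a), -0.019 to 0.12 (Scn3a) and -0.0023 to 0.12 (Scn8a). Between classes it gave -0.0051 to 0.049 (Scn3b, GABA against glutamatergic), -0.31 to 0.22 (Scn4b, difference of COL effects), -0.27 to 0.030 (Scn2b) and -0.46 to 0.045 (Scn4b) for OPC against oligodendrocytes, and -0.18 to 0.18 (Scn3b) for astrocytes against oligodendrocytes. Of the other alternatives for single members, 498 kept direction and side of the threshold, as did 305 fits without 1 library.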
